A study of Rattus norvegicus with 4 samples.

Results

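The heat shock chaperones Hspb1, Hsp90ab1 and Hspd1 were read by 5 probe sets, all those whose gene symbol in the array's probe table is exactly one of these names. They make up 3 of the 720 named genes and 5 of the 1263 probe sets other than controls. Hspb1 had 3 probe sets, and Hsp90ab1 and Hspd1 had 1 each. The 4 arrays held total RNA of rat samples with the source label brain and adrenal medulla. They were digested day 7, undigested day 7, digested day 1 and undigested day 1, with 1 array each. The labels give neither what was digested nor the strain, age, sex or genotype of the animals, nor how many animals a sample came from.

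Chaperones bind proteins that are unfolded or still folding and keep them from clumping. Hspb1 codes for HSP27, a small heat shock protein that holds unfolded proteins without using ATP and also acts on actin filaments. Hsp90ab1 codes for HSP90-beta, the constitutive cytosolic form of an ATP-driven chaperone that matures kinases and steroid receptors. Hspd1 codes for HSP60, which forms the folding chamber of the mitochondrial matrix, and Hspe1 codes for HSP10, the lid of that chamber. Heat shock factor 1, the regulator of the stress response, binds repeats of a short unit in the promoters of many chaperone genes. In nervous and neuroendocrine tissue these genes are known as markers of protein folding stress and of cell survival after injury.

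With 1 array per group there was no spread between replicates, so the differences between arrays are sizes without a test. Signals are linear intensities per probe set, scaled here to a common median, and a signal of 51.8 was used as the floor. All 5 chaperone probe sets lay among the 632 analysed, those with a mean signal at or above 229. Of 8 chromaffin cell markers looked for, 4 were on the array, and their summed signal was 235359 in digested day 7, 349937 in undigested day 7, 287038 in digested day 1 and 269456 in undigested day 1. Th, the gene of tyrosine hydroxylase, and the catecholamine enzyme genes Dbh and Ddc passed the filter. The vesicle transporter gene Slc18a2, with 31.3 to 161 over the arrays, did not. The chromaffin sum was mostly Th, with 163625 and 256725 in digested and undigested day 7, against 233350 and 221633 in digested and undigested day 1. Ddc had 68611 and 88923 in digested and undigested day 7, against 51146 and 46082 in digested and undigested day 1. Dbh had 2961 and 4175 against 2461 and 1711 in the same order. In the digested samples Th was thus lower at day 7, while Ddc and Dbh were higher. All 7 neuronal marker genes on the array passed, with summed signals of 120825 in digested day 7, 153148 in undigested day 7, 196789 in digested day 1 and 184452 in undigested day 1. Of the 7 glial marker genes on the array 4 passed, and the summed signals of the 7 were 6323 and 6527 in digested and undigested day 7, against 9699 and 9398 in digested and undigested day 1. The Schwann and astrocyte gene S100b read 46.3 to 96.3. Of 6 fibroblast and vessel markers only Vim was on the array, and it read 12.1 to 21.5. Of 5 immune markers only Itgam was, and it read 7.92 to 123. Neither passed the filter, so the array says little about these cell types. No probe set analysed here was named for the 5 adrenal cortex markers. The part of cell makeup in the differences below was not tested.

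Promoter windows were searched for exact pairs of the unit bound by heat shock factor 1. RefSeq windows of build GRCr8, from 250 bases before to 50 bases after the gene start, were available for the 3 chaperones and for 4 of 7 other chaperone and heat shock genes on the array. Pairs of units were searched as GAANNTTC and TTCNNGAA, each of which reads the same on both strands. GAANNTTC was in 8.59% and TTCNNGAA in 8.77% of 33469 windows. A run of 3 units, GAANNTTCNNGAA or its reverse complement TTCNNGAANNTTC, was in 0.798% of them and contains both shorter motifs. The Hspb1 window held GAANNTTC at 129 and at 109 bases before the start, and no TTCNNGAA. The Hspd1 window held a run of overlapping matches starting 242 bases before the start. The same run starts 65 bases before the start of Hspe1, the head-to-head neighbour, on the other strand. No match was in the windows of Hsp90ab1, Hspa1a, Hspa1l or Canx. Only exact letters within these windows were searched, so a window without a match does not show that a gene lacks such units. The sequences are shown 5′ to 3′ on the strand of each gene, with the matches in capitals: the 250 bases before Hspb1 (chr12:26432302-26432551, minus strand) and 30 bases shared by Hspd1 (minus strand) and Hspe1 (plus strand) at chr9:64084256-64084285. A match describes the letters only.
Hspb1: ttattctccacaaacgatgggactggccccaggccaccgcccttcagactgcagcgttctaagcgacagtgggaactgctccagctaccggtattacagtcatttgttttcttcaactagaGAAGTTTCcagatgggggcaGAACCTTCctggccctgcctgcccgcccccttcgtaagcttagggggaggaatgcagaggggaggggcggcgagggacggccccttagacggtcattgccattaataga
Hspd1: ggggccTTCCGGAAGGTTCTAGAAccgagc
Hspe1: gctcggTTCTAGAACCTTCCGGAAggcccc

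Hspb1 read lower at day 7 than at day 1 in both digestion states and with all 3 of its probe sets. Its brightest probe set, rc_AA998683_g_at, had signals of 17715 and 18128 in digested and undigested day 7, against 30739 and 31742 in digested and undigested day 1. The day 7 arrays both lay below the day 1 arrays, and the arrays of 1 day differed little. The probe set rc_AI176658_s_at had 13321 and 8866 in digested and undigested day 7, against 20654 and 20191 in digested and undigested day 1. The probe set M86389cds_s_at had 8031 and 5744 in digested and undigested day 7, against 13402 and 13055 in digested and undigested day 1. In both of these probe sets, whose suffix marks probes that can match more than 1 transcript, the undigested day 7 array was also clearly below the digested day 7 array. All 3 probe sets read the same gene in the same RNA and are not replicates of a condition. In the total RNA of a sample, fewer cells of a type and less RNA per cell cannot be told apart.

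**Figure D1:**
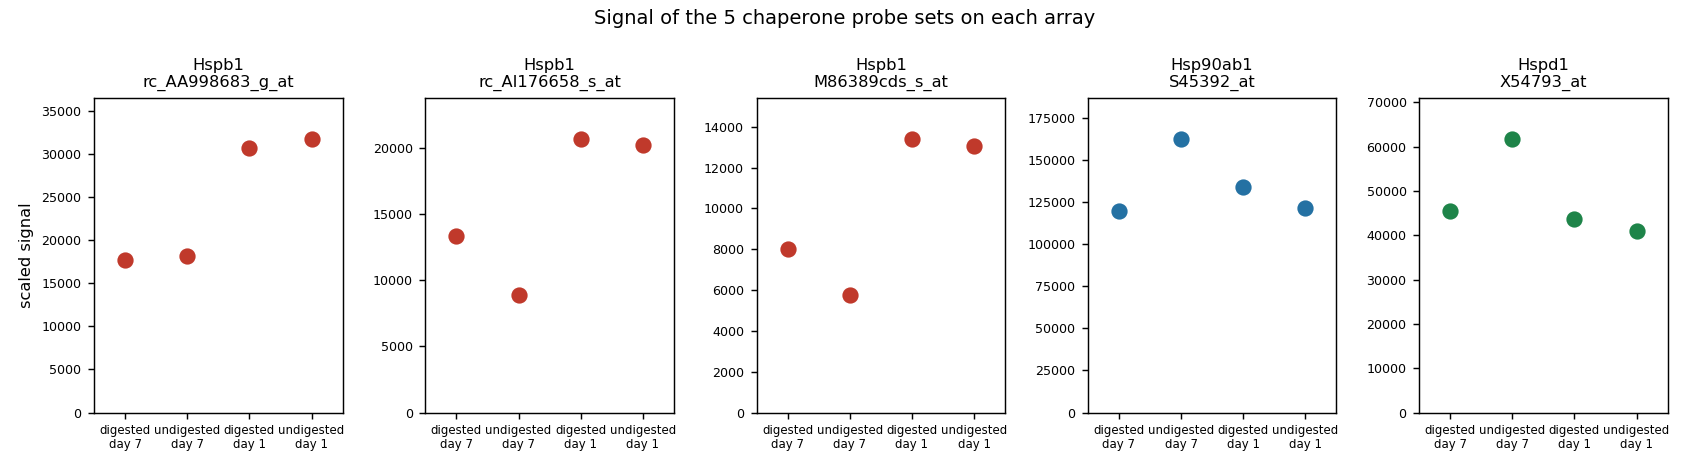
Scaled signal (y axis, from 0, a different range in each panel) of the 5 chaperone probe sets on the digested and undigested day 7 and the digested and undigested day 1 arrays (x axis), 1 point per array and no error bars because each group has 1 array. The day 7 arrays lie below the day 1 arrays in every Hspb1 panel (17715 and 18128 against 30739 and 31742 in the first), while undigested day 7 is the highest array for Hsp90ab1 and Hspd1.

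In the digested samples the day 7 minus day 1 log2 difference of Hspb1 was -0.80, -0.63 and -0.74 by the probe sets in the order above, that is 1.74-fold, 1.55-fold and 1.67-fold lower at day 7. The 3 values had an SD of 0.08, and the pooled SD between probe sets of a gene in this comparison was 0.41 over 125 genes. None of the 5 chaperone probe sets passed 2-fold, against 8.07% of all analysed probe sets, and 3 of 5 passed 1.5-fold, all of Hspb1, against 23.7% of all (13.3% lower).

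In the undigested samples the day 7 minus day 1 log2 difference of Hspb1 was -0.81, -1.19 and -1.18, or 1.75-fold, 2.28-fold and 2.27-fold lower at day 7. Of the 5 chaperone probe sets, 2 passed 2-fold, both of Hspb1, against 13.3% of all. Lower by 2-fold were 6.01% of all, and 3.48% of the 316 brightest, which include all the chaperone probe sets. Among the 632 differences, 55, 26 and 27 were lower than those of the Hspb1 probe sets. The SD of the 3 Hspb1 values was 0.22, and the pooled SD between probe sets of a gene was 0.52. With the values as deposited, quantile normalisation or cyclic loess, all 3 Hspb1 probe sets passed 2-fold, against 12.5%, 12.8% and 12.2% of all. All 3 were past 1.5-fold lower at day 7 in both digestion states, as were 28 of the 632 probe sets (4.43%) and 5.06% of the 316 brightest. The pairs of arrays behind this last count share no array.

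The difference between the days was also estimated with an additive limma fit of digestion and day, which leaves 1 residual degree of freedom. Its error comes from the change of a difference between the states and from a spread pooled over probe sets, not from replicates. It put Hspb1 at a log2 of -0.80 ± 0.31, -0.91 ± 0.32 and -0.96 ± 0.31 (SE) for day 7 minus day 1. The unadjusted limma p-values were 0.028, 0.020 and 0.014, and the adjusted ones 0.33, 0.27 and 0.25, so no Hspb1 probe set passed an adjusted p of 0.05. Over all 632 probe sets, limma gave 91 with an unadjusted p under 0.05 (14.4%) and 1 with an adjusted p under 0.05 (0.158%).

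The undigested day 7 array was the lowest for 2 of the 3 Hspb1 probe sets. It stood apart in the beta-actin ratio, a measure of how complete the labelled RNA is. The GAPDH and hexokinase ratios, given further below, differed less between the arrays. For beta-actin, 3′ signal over 5′ signal came to 1.35 and 2.66 in digested and undigested day 7, against 1.48 and 1.42 in digested and undigested day 1. The 3′ probe set of beta-actin had scaled signals of 107305 and 95165 in digested and undigested day 7, against 164291 and 154409 in digested and undigested day 1. The 5′ probe set had 79204 and 35743 in digested and undigested day 7, against 111256 and 108701 in digested and undigested day 1. In the digested samples Hspb1 read 1.55-fold to 1.74-fold lower at day 7, with beta-actin ratios of 1.35 at day 7 and 1.48 at day 1. The part of RNA completeness in the Hspb1 differences of either digestion state was not tested. The median of the bacterial hybridisation controls was lower on the digested day 7 array, at a log2 of -1.32 against the other arrays.

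Hspd1 read higher in undigested day 7 than on the other arrays. Its signals were 45529 and 61697 in digested and undigested day 7, against 43733 and 40838 in digested and undigested day 1. The digested day 7 array and both day 1 arrays lay close together. In the digested samples the day 7 minus day 1 log2 difference was 0.06. In the undigested samples it was 0.60, or 1.51-fold higher at day 7, just past 1.5-fold, as were 23.7% of all probe sets in the same direction. With it, 4 of the 5 chaperone probe sets passed 1.5-fold in this comparison, against 37.2% of all either way. It was 0.36 with the values as deposited, with quantile normalisation and with cyclic loess, which puts it short of 1.5-fold. The limma fit gave 0.33 ± 0.32 (SE) for day 7 minus day 1, with an adjusted p of 0.66.

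Hsp90ab1 had the smallest range of the 5 probe sets, 1.36-fold between its highest and lowest array. Its signals were 119442 and 162267 in digested and undigested day 7, against 133515 and 121350 in digested and undigested day 1. As for Hspd1, undigested day 7 was the highest array. The day 7 minus day 1 log2 difference was -0.16 in the digested and 0.42 in the undigested samples. The second was 0.19 in the values as deposited and 0.17 with cyclic loess, and it turned to -0.16 with quantile normalisation. The limma fit gave 0.13 ± 0.32 (SE) with an adjusted p of 0.88.

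**Figure D2:**
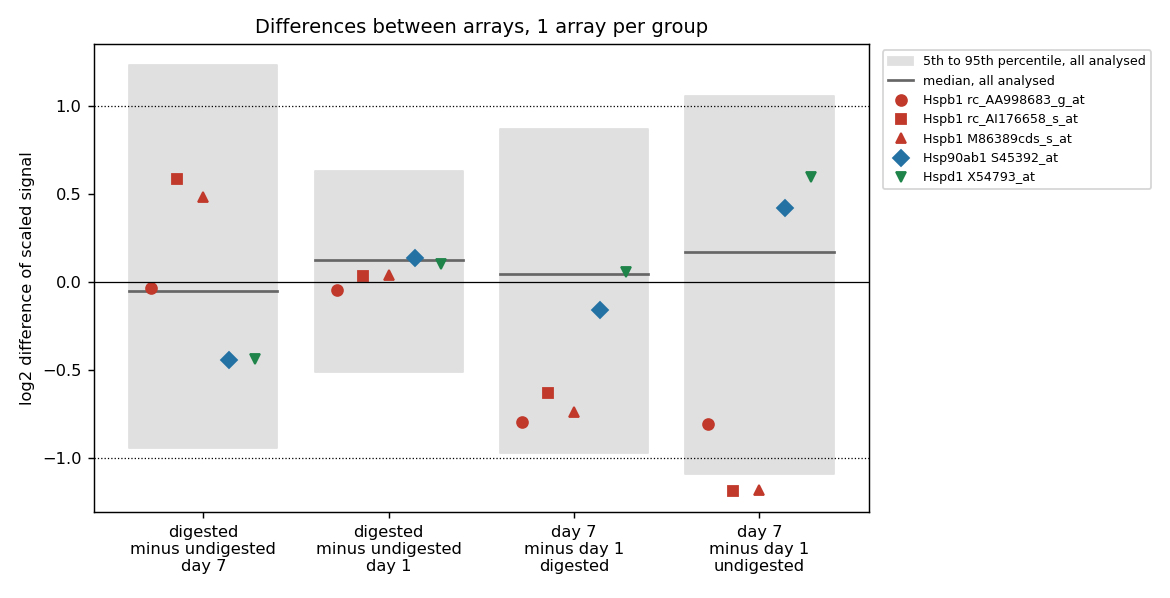
Log2 difference of scaled signal (y axis) of the 5 chaperone probe sets in the 4 comparisons (x axis), over grey boxes from the 5th to the 95th percentile and a line at the median of all 632 analysed probe sets, with dotted lines at 2-fold. There are no error bars because each group has 1 array. In the undigested day comparison, at the right, 2 Hspb1 probe sets lie below the box, at -1.19 and -1.18, and Hspd1 and Hsp90ab1 lie above the median, at 0.60 and 0.42.

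The choice of scaling moved the median of all analysed probe sets in the undigested day comparison from 0.17 by -0.23 for the values as deposited, and by -0.17 for quantile normalisation and cyclic loess. In the digested day comparison, relative to a median of 0.04, the differences were -0.84, -0.68 and -0.78 for Hspb1, 0.02 for Hspd1 and -0.20 for Hsp90ab1. In the undigested one, relative to the median of 0.17, they were -0.98, -1.35 and -1.35 for Hspb1, 0.43 for Hspd1 and 0.25 for Hsp90ab1. A difference between genes on the same arrays does not depend on a common scaling factor. By the brightest probe sets, the day difference of Hspd1 exceeded that of Hspb1 by a log2 of 0.85 in the digested and 1.40 in the undigested samples. That of Hsp90ab1 exceeded that of Hspb1 by 0.63 in the digested and 1.23 in the undigested samples. Between Hspd1 and Hsp90ab1 the same quantity was 0.22 in the digested and 0.18 in the undigested samples. The sign of a single gene does depend on the scaling factor. In both states the day difference of Hspb1 was negative and that of Hspd1 positive, also under each of the other scalings. In the digested samples that of Hspd1 was small, at 0.06 to 0.14 over the settings. The pooled SD between probe sets of a gene was 0.41 in that comparison.

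**Figure D3:**
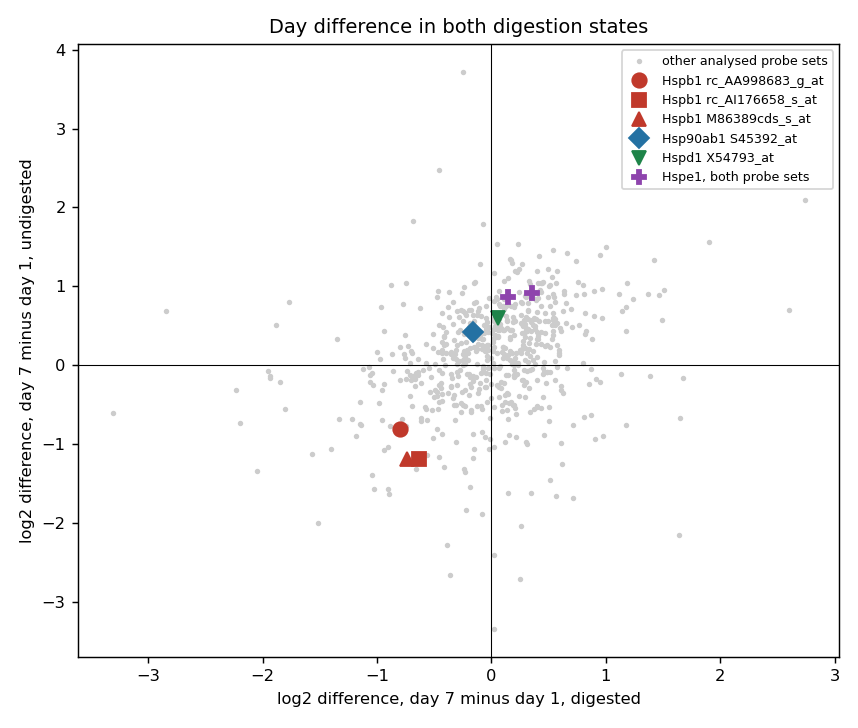
Log2 difference of day 7 minus day 1 in digested samples (x axis) and in undigested samples (y axis), 1 point per analysed probe set, with the 5 chaperone probe sets and both Hspe1 probe sets marked. The 3 Hspb1 probe sets lie in the lower left, at -0.63 to -0.80 digested and -0.81 to -1.19 undigested. Hspe1 lies in the upper right, and Hspd1 lies close to the vertical line, at 0.06 digested and 0.60 undigested.

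At day 7 the digested sample read lower than the undigested one for Hsp90ab1 and Hspd1, both with a log2 difference of -0.44, or 1.36-fold lower. Hsp90ab1 stood at -0.30 in the values as deposited and at -0.13 with cyclic loess, and turned to 0.16 with quantile normalisation. Hspd1 stood at -0.29, -0.23 and -0.30 under the same alternatives. The Hspb1 probe sets disagreed: rc_AI176658_s_at had a log2 difference of 0.59 and M86389cds_s_at one of 0.48, higher in the digested sample, while rc_AA998683_g_at differed by a log2 of -0.03, which turned positive under each of the other scalings. The SD of the 3 Hspb1 values was 0.33, and the pooled SD between probe sets of a gene was 0.52. None of the 5 passed 2-fold, against 11.4% of all, and 1 passed 1.5-fold, against 27.8%. The undigested array used here had the beta-actin ratio of 2.66, with 1.18 for GAPDH and 1.40 for hexokinase. The digested one had the low hybridisation controls. From day 1 to day 7 the digestion difference shifted by -0.58 for Hsp90ab1 and -0.54 for Hspd1. For Hspb1 the shift was 0.01, 0.55 and 0.45. The SD of this shift over all analysed probe sets was 0.80.

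At day 1 the digested and undigested samples gave nearly the same chaperone signals. The digested minus undigested log2 difference was -0.05, 0.03 and 0.04 for the Hspb1 probe sets, 0.14 for Hsp90ab1 and 0.10 for Hspd1, around a median of 0.12 for all probe sets. The differences of rc_AI176658_s_at, M86389cds_s_at and Hspd1 turned negative in the values as deposited and with cyclic loess, and those of M86389cds_s_at and Hspd1 also with quantile normalisation. None of the 5 passed 2-fold, against 3.48% of all, and none passed 1.5-fold, against 11.6%. In the limma fit over both days, none of the 5 had an unadjusted p under 0.05 for digestion, and all had an adjusted p of 0.999. Over the 632 probe sets 42 had an unadjusted p under 0.05 (6.65%), and 0 passed after adjustment.

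Besides the 3 chaperones, 7 genes of a list of 76 heat shock and chaperone genes were on the array, read by 12 probe sets, of which 10 of 6 genes were analysed. Hspe1, the partner of Hspd1, read higher at day 7 in the undigested samples with both probe sets. By the brighter one it had 43924 and 54835 in digested and undigested day 7, against 34348 and 29007 in digested and undigested day 1. Its log2 differences between the days were 0.35 in the digested and 0.92 in the undigested samples by that probe set, and 0.14 and 0.86 by the other. The undigested values of the brighter and dimmer probe set were 0.69 and 0.63 in the values as deposited. They were 0.65 and 0.56 with quantile normalisation, the second short of 1.5-fold, and 0.68 and 0.63 with cyclic loess. As for Hspd1, the undigested day 7 array was the highest. The day difference of Hspe1 exceeded that of Hspd1 by 0.30 in the digested and 0.32 in the undigested samples, and in the limma fit its adjusted p was 0.41 and 0.53 by the brighter and dimmer probe set.

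St13, which codes for HIP, a cochaperone of HSP70 and HSP90, read higher at day 7 in both states. Its brighter probe set had 22679 and 22025 in digested and undigested day 7, against 16378 and 16552 in digested and undigested day 1. That is 1.38-fold in the digested and 1.33-fold in the undigested samples, and its other probe set gave 1.76-fold and 1.88-fold. The undigested log2 difference of its brighter probe set, 0.41, was 0.18 in the values as deposited and with cyclic loess and 0.06 with quantile normalisation. Hmox1, the gene of the stress-induced haem oxygenase, had 35886 and 51838 in digested and undigested day 7, against 27082 and 25244 in digested and undigested day 1, by its brighter probe set. It was 1.33-fold higher at day 7 in the digested and 2.05-fold in the undigested samples, and its other probe set gave 1.62-fold and 1.64-fold. The undigested log2 difference of its brighter probe set, 1.04, was 0.81 in the values as deposited, 0.69 with quantile normalisation and 0.80 with cyclic loess, all short of 2-fold. In the limma fit, the adjusted p-values of these 4 probe sets for the day were 0.28 to 0.56.

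The remaining genes on the list showed no common direction between the days. Hspa1a, the gene of the stress-induced HSP70, had 1646 and 2035 in digested and undigested day 7, against 1812 and 1743 in digested and undigested day 1, by its brighter probe set. Its log2 day difference was -0.14 in the digested and 0.22 in the undigested samples by that probe set, and 0.27 and 0.21 by the other. The undigested values of both turned to -0.01 and -0.02 in the values as deposited, and were 0 and 0.10 with quantile normalisation and 0.06 and 0.08 with cyclic loess, so they had no settled direction. Canx, the gene of the endoplasmic reticulum chaperone calnexin, was highest in digested day 7, with 23920 and 13574 in digested and undigested day 7, against 17214 and 15925 in digested and undigested day 1. Hspb2, a small heat shock protein gene of muscle, was lowest there, at 354 and 612 in digested and undigested day 7, against 468 and 611 in digested and undigested day 1. The digestion difference at day 7 was 0.82 for Canx and -0.79 for Hspb2. Hspa1l, an HSP70 gene known from the testis, had 123 and 9.41 in digested and undigested day 7, against 172 and 27.0 in digested and undigested day 1, so its undigested signals lay under the floor. The second probe set of Hspb2 also lay below the filter.

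**Figure D4:**
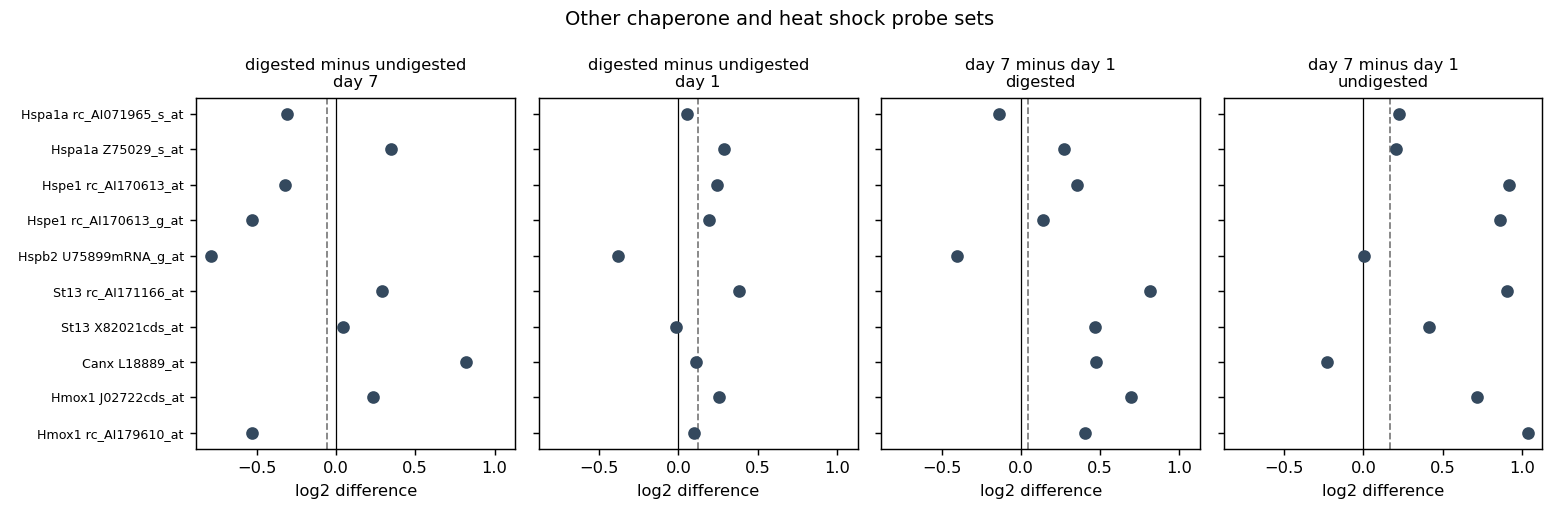
Log2 difference of scaled signal (x axis) of the 10 analysed probe sets of 6 other chaperone and heat shock genes (y axis), in 1 panel per comparison, with a solid line at 0 and a dashed line at the median of all 632 analysed probe sets. The day comparisons show Hspe1, St13 and Hmox1 to the right of 0 with both probe sets each, at 0.92 and 0.86 for Hspe1 in undigested samples.

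Counted over the list, 2 of the 10 probe sets were at least 1.5-fold higher at day 7 in the digested samples, against 10.4% of all. In the same comparison 0 were 1.5-fold lower, against 13.3% of all. In the undigested samples 5 were at least 1.5-fold higher, against 23.7% of all, and 0 lower, against 13.4% of all. The count of 5 became 4 in the values as deposited, 3 with quantile normalisation and 4 with cyclic loess, with 13.3%, 16.1% and 16.6% of all probe sets. The median over the 6 genes was a log2 of 0.36 in the digested and 0.44 in the undigested samples, beside medians of 0.04 and 0.17 over all probe sets. For digestion the median was -0.06 at day 7 and 0.18 at day 1, beside -0.05 and 0.12 over all. At day 7, 1 probe set, that of Canx, was at least 1.5-fold higher and 1, that of Hspb2, at least 1.5-fold lower in the digested sample, against 13.6% higher and 14.2% lower of all.

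The genes with the profile most like each chaperone were found by the root mean square difference of centred log2 values over the 4 arrays, among the brightest probe sets of 384 other named genes. For Hspb1 these were Arrb2, which codes for an arrestin, the transferrin receptor gene Tfrc and Snap25, a gene of vesicle fusion that is also on the neuronal marker list. They were at 0.047, 0.069 and 0.070, beside a median of 0.53 over the 384. Hspb1 was compared here by rc_AA998683_g_at alone. The day differences of its other probe sets varied more between the digestion states. Arrb2 had 2811 and 2727 in digested and undigested day 7, against 4801 and 4629 in digested and undigested day 1, and its day differences were -0.77 in the digested and -0.76 in the undigested samples. For Hsp90ab1 they were Bad, a cell death gene of the BCL2 family, the dynein light chain gene Dynll1 and the phospholipase gene Pld2, at 0.044, 0.045 and 0.048, beside a median of 0.28. For Hspd1 they were the calpain gene Capn2, the small GTPase gene Rab28 and the transcription factor gene Stat3, at 0.033, 0.038 and 0.039, beside a median of 0.30. Hsp90ab1 and Hspd1 were at 0.100 from each other, place 30 in either order. From Hspb1, Hsp90ab1 was at 0.49 (place 157) and Hspd1 at 0.58 (place 239). With 4 arrays many genes come this close, and the order is a description.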

How the data were processed

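The deposited values were linear signal intensities for 1322 probe sets on 4 arrays, 59 of them controls. The signal algorithm and the scaling the authors used are not given in the sources used here. The mean after trimming 2% at each end was 2515 to 2516 on every array, so a common scaling appears to have been applied. Here a factor per array (0.925 to 1.09) brought the medians of the 1263 non-control probe sets together, values were floored at the 20th percentile, and log2 was taken. Those with a mean log2 at or above the median of all were analysed. Gene names came from the probe table. RefSeq held the identifiers of 1132 of the 1137 probe sets that name 1 gene and changed 0 symbols.

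Named genes were the 3 chaperones, all genes of a chaperone list that were on the array, and the 3 closest profiles per chaperone. The chaperones and lists were chosen with earlier results of these data known. The additive fit used limma 3.58.1 in R 4.3.3 with Benjamini-Hochberg adjustment over the 632 probe sets. Its estimates were checked on simulated arrays with shifts planted for digestion and none for day, so the p-values for the day were not tested by it. Other steps used Python 3.11.15. The alternatives were the values as deposited, quantile normalisation, cyclic loess, an offset of 50, a 40th percentile floor, no filter, 1 value per gene and thresholds of 1.5-fold and 3-fold. The 316 brightest probe sets alone were added after the data were seen.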

Additional observations from a re-analysis of the deposited data

Results flagged for a closer look

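A pair of chaperones differed in sign under the same comparison in different states, with 1 array per group, so these differences were not tested. For Hsp90ab1 the digested minus undigested log2 difference was -0.44 at day 7 and 0.14 at day 1, and its day 7 minus day 1 difference was -0.16 in the digested and 0.42 in the undigested samples. With quantile normalisation the opposite signs of Hsp90ab1 were gone: the digestion difference was 0.16 at day 7 and 0 at day 1, and the day difference 0 in the digested and -0.16 in the undigested samples. Its day 1 digestion difference was 0.01 in the values as deposited and 0.04 with cyclic loess. For Hspd1 the digested minus undigested difference was -0.44 at day 7 and 0.10 at day 1. The day 1 value of Hspd1 turned negative in the values as deposited (-0.03), with quantile normalisation (-0.01) and with cyclic loess (-0.02), so that both days then had the same sign. Both flags of Hsp90ab1 use the same 4 signals and are 1 pattern.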

How the results depend on the processing

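The 3 Hspb1 probe sets read lower at day 7 in both digestion states in the values as deposited, with quantile normalisation and with cyclic loess. The floor, filter and offset settings could not change the sign of these bright probe sets, so they did not test this result. In the undigested day comparison 2 of the 5 chaperone probe sets passed 2-fold, and 3 did in the values as deposited, with quantile normalisation and with cyclic loess. With 1 value per gene 1 gene of 3 passed, and at a 3-fold threshold 0 did. No share over all genes or probe sets is given for these settings, so neither count can be read against all. At a 1.5-fold threshold 3 passed in the digested and 4 in the undigested day comparison, 1 for digestion at day 7 and 0 at day 1. Of 120 differences of single chaperone probe sets under other settings, 107 kept their sign or were 0 and 13 changed it. All 13 were in the values as deposited, with quantile normalisation or with cyclic loess. The 120 include the floor, filter and offset settings, which could not change a sign. Of the 120, 2 moved by more than the spread between probe sets of a gene. Both were of Hsp90ab1 with quantile normalisation (0.16 for digestion at day 7 and -0.16 for the undigested day difference). That method gives a probe set the mean signal at its rank, and Hsp90ab1 was at rank 3 in undigested day 7 and at rank 2 on the other arrays. No chaperone probe set passed an adjusted p of 0.05 in the limma fit under any alternative run. The additive fit compares the days within each digestion state and the digestion states within each day. With 1 array per group there was no replicate to leave out and no replicate number to pair by.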
